A study of Mus musculus with 2 samples.

Results

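Dying cells are cleared by receptors that bind phosphatidylserine on their surface, by the motors of engulfment behind those receptors, and by proteins that store or export the lipid taken in. The 10 genes described here were chosen by name, out of 41459 listed genes, and all 10 were present in both count tables. They are the receptor kinases Mertk, Tyro3 and Axl, their ligand Gas6, the bridging protein Mfge8, the integrin subunit Itgav, the engulfment adaptor Elmo1, the fatty acid receptor Cd36, the cholesterol exporter Abca1 and the lipid droplet coat protein Plin2. Their RNA was measured in whole testes of 55-day-old mice by droplet single-cell RNA sequencing. There was 1 library from Rad21l-/- mice (RAD21L KO, lacking a cohesin subunit used in meiosis) and 1 from Rad21l+/+ mice (WT). The labels do not give the strain, the number of mice behind each library or which part of Rad21l the allele lacks.

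Cells were placed in classes by fixed marker genes, none of which is among the 10. A cell passed a gate when the share of its unique molecular identifiers (UMIs, tags that count captured transcripts) on the class's markers was at least 2 times the mean share of both libraries and at least 3 of the markers had a UMI. Cells that passed for more than 1 lineage were left out. The KO library gave 2204 Sertoli, 421 macrophage, 692 Leydig, 708 stromal, 100 myoid, 618 spermatogonia and 652 early prophase cells. A further 40 KO cells were endothelial. Orders of levels given below are among gates of at least 50 cells, which leaves the endothelial gate out. The WT library gave 188 Sertoli, 113 spermatogonia, 124 early prophase, 662 pachytene, 1200 round spermatid and 1319 elongating spermatid cells. It gave 7 macrophage, 7 Leydig and 4 stromal cells, too few to compare. Every marker of the Sertoli, macrophage and Leydig lists had UMIs in its own KO gate.

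The KO library held 28001992 UMIs in 7118 barcodes and the WT library 33096309 UMIs in 5415 barcodes, of which 6381 and 5400 cells were kept. They shared 14 barcode sequences. The targeted gene Rad21l stood at 18.9 CPM in KO early prophase cells (58 UMIs) and 67.1 CPM in WT early prophase cells (47 UMIs). Over all barcodes it was at 3.96 CPM in the KO library and 2.48 CPM in the WT library. CPM here means UMIs of a gene per 1000000 UMIs of the summed gate. Because each genotype had a single library, no test was possible and the comparisons hold for these libraries only. Bounds given in parentheses are 95% intervals for counting error alone (exact Poisson for levels, Clopper-Pearson for shares, conditional binomial for ratios).

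Clearance of dead cells is a daily task of the testis. Sertoli cells, the nurse cells of the seminiferous tubule, engulf germ cells that die in meiosis and the residual bodies that maturing spermatids shed. Mertk, Tyro3 and Axl do not touch phosphatidylserine themselves: Gas6 or protein S bridges them to it, and Mfge8 does the same for integrins that contain the Itgav chain. Engulfed membranes bring cholesterol, and Abca1, which exports it, is one of the best known targets of the nuclear receptor LXR and its partner RXR. Leydig cells, which make testosterone from cholesterol, lie between the tubules beside macrophages.

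The upstream sequences of Abca1 and Gas6 are shown because both genes had their highest levels in Leydig cells and macrophages, and they were the genes past 2-fold between KO and WT Sertoli cells. Each run is the 150 bases before the transcription start of the RefSeq table (GRCm38.p6, minus strand for both genes), 5′ to 3′. The bases just after that start were found in a transcript of the GENCODE annotation for Abca1 but not for Gas6. The start used for Gas6 thus rests on RefSeq alone. Capitals mark matches, on either strand, to 6 motifs searched: the LXR element TGACCGNNNNTAACC, the E-box CACGTG, the GC box GGGCGG, the TATA box TATAAA, the AP-1 site TGANTCA and the NR5A1 half-site AAGGTCA.
Abca1, chr4:53159896-53160045: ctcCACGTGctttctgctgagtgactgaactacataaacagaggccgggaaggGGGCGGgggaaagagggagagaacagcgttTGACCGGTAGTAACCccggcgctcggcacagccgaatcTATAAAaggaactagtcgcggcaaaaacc
Gas6, chr8:13494536-13494685: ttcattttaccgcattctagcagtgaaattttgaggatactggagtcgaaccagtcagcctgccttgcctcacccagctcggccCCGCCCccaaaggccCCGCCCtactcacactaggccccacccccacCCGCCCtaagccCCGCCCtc
In Abca1 the E-box began 147, the GC box 97, the LXR element 67 and the TATA box 29 bases before the start. The LXR element searched was that of Abca1 itself, so its match there was fixed in advance. Other forms of it were not searched, in Gas6 or elsewhere. The searched form was present in 2 of 32851 windows of this length (0.0061%), the E-box in 4.3%, the TATA box in 7.57% and the GC box in 28.6%. Gas6 held 4 GC boxes and no match to the other motifs. Neither window held the AP-1 site (4.24% of windows) or the NR5A1 half-site (2.31%). GC boxes lay in the windows of 8 of the 10 genes, Itgav and Plin2 being the exceptions. Letters that match are a description of the sequence and say nothing of binding in these cells.

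In the KO library the 10 genes divided by cell class. Set against all other gated KO cells, 6 of 10 were at least 2-fold higher in Sertoli cells: Mertk, Tyro3, Axl, Elmo1, Mfge8 and Itgav. Over all 16872 genes with at least 20 UMIs in this comparison, 18.1% were that much higher. The other 4 genes, Gas6, Cd36, Abca1 and Plin2, were at least 2-fold lower there, beside 32.8% of all genes. In macrophages 4 were higher (Mertk, Gas6, Abca1 and Plin2, beside 11.4% of all genes) and 2 lower (Tyro3 and Mfge8, beside 27.0%). In Leydig cells 4 were higher (Gas6, Cd36, Abca1 and Plin2, beside 10.2%) and 3 lower (Tyro3, Axl and Mfge8, beside 45.4%). In germ cells 0 of 10 were higher, beside 28.9% of all genes, and 9 were lower, beside 30.4%. Mfge8 was the exception, at 0.52 times the other gated cells (0.48 to 0.57). The median log2 ratio of the 10 genes was 1.27 in Sertoli cells, 0.57 in macrophages, -0.70 in Leydig cells and -2.69 in germ cells, beside medians over all genes tested of -0.28, -0.36, -0.87 and 0.11.

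**Figure D1:**
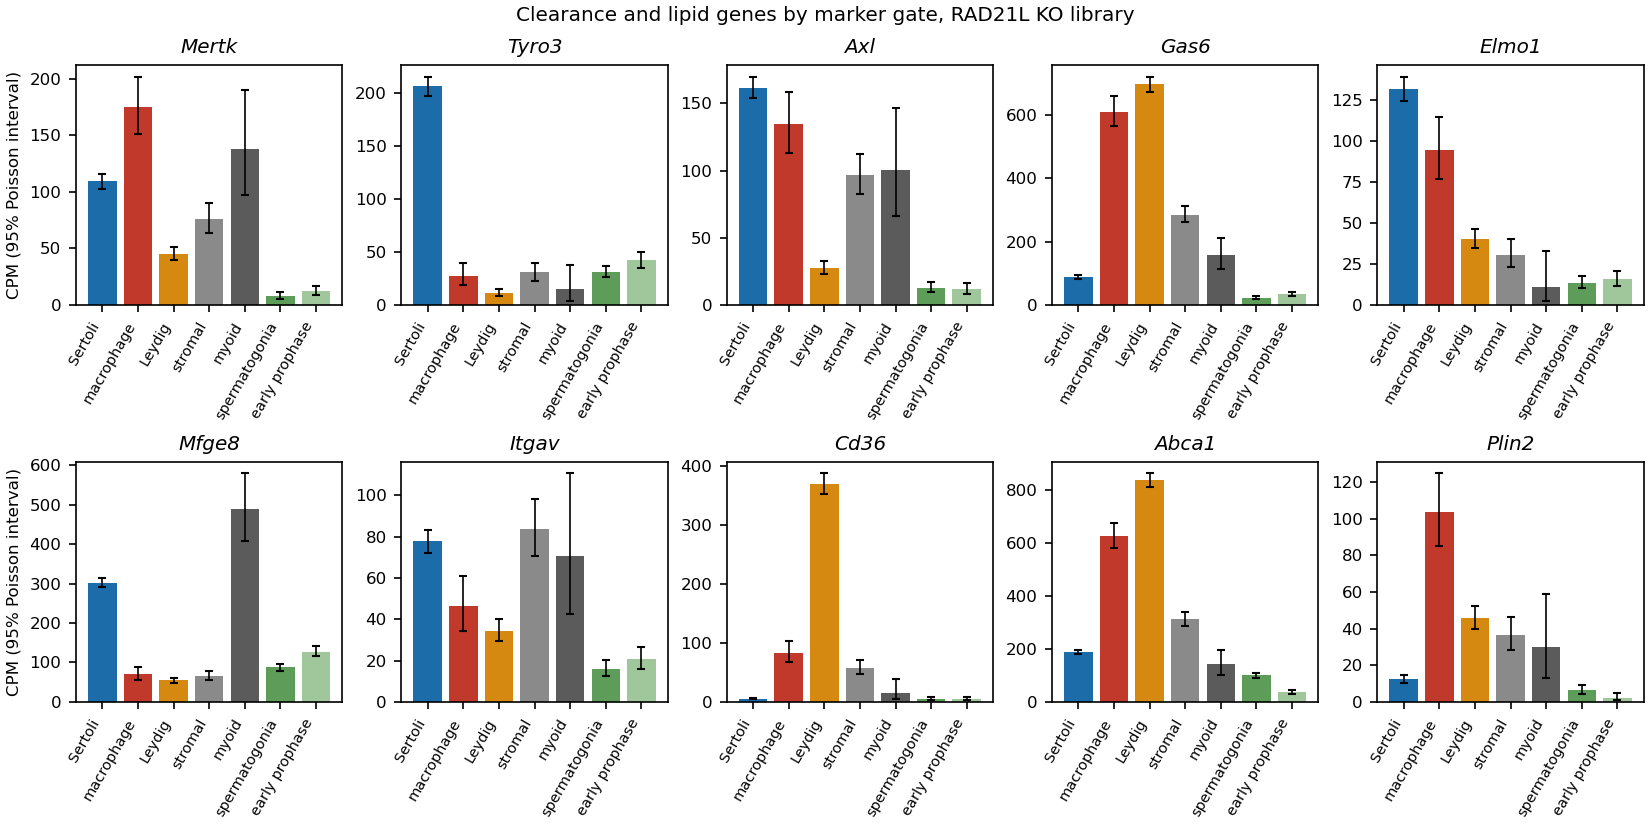
CPM of each of the 10 genes (vertical axes, each with its own scale from 0) in 7 marker gates of the RAD21L KO library, with 95% Poisson intervals that cover counting error only. Tyro3 stands out in Sertoli cells (206 CPM), Cd36 in Leydig cells (370 CPM) and Plin2 in macrophages (104 CPM).

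Of the 3 receptor kinases, Tyro3 was the one most concentrated in Sertoli cells. It stood at 206 CPM in KO Sertoli cells (197 to 216) and 26.6 CPM in the other gated KO cells, a ratio of 7.77 (6.98 to 8.67). The next KO gate was early prophase at 42.4 CPM, and Leydig cells were lowest at 11.4 CPM. With each cell thinned to 2000 UMIs, 35.6% of KO Sertoli cells (32.8% to 38.4%, 1175 cells) and 2.35% of Leydig cells (1.32% to 3.84%, 639 cells) had a Tyro3 UMI. The unthinned shares were 44.5% and 7.66%, at median depths of 2984 and 7170 UMIs.

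Mertk, the receptor best known for clearance by macrophages and by the retinal epithelium, was instead shared between classes. It stood at 175 CPM in KO macrophages (151 to 202), 138 CPM in myoid cells (97.1 to 190.2) and 109 CPM in Sertoli cells (103 to 116). The ratio of macrophages to Sertoli cells was 1.60 (1.36 to 1.87). Myoid cells, the contractile layer around the tubule, could not be told from either neighbour in that order by counting error. Stromal cells followed at 75.8 CPM and Leydig cells at 45.3 CPM. Thinned to 2000 UMIs, 29.3% of macrophages and 18.6% of Sertoli cells had a UMI (32.5% and 31.0% unthinned), against 1.84% of KO spermatogonia (5.18% unthinned). The median depths were 2395 UMIs in macrophages, 2984 in Sertoli cells and 6009 in spermatogonia.

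Axl, the receptor usually raised in inflamed tissue, was highest in KO Sertoli cells at 162 CPM (154 to 170). Macrophages were at 134 CPM (113 to 158) and the ratio of macrophages to Sertoli cells was 0.83 (0.70 to 0.99). Myoid and stromal cells stood at 101 and 96.3 CPM. Leydig cells, at 27.4 CPM, lay far below all of these. Of the 4 KO classes compared, Sertoli cells were thus the one with all 3 receptor kinases at least 2-fold above the rest.

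Between KO Sertoli and Leydig cells the ligand Gas6 had the reverse order to Mertk, Tyro3 and Axl. In macrophages Gas6 was high, as were Mertk and Axl but not Tyro3. It stood at 696 CPM in KO Leydig cells (673 to 720.3) and 610 CPM in macrophages (564 to 658), with a ratio of 1.14 (1.05 to 1.24). Stromal cells were at 285 CPM and myoid cells at 157 CPM. KO Sertoli cells, at 88.1 CPM (82.3 to 94.3), held 0.28 times the level of the other gated cells (0.26 to 0.30). A Gas6 UMI was present in 60.1% of Leydig cells, 64.3% of macrophages and 16.8% of Sertoli cells thinned to 2000 UMIs (86.1%, 62.5% and 24.3% unthinned), against 4.69% of spermatogonia (13.4% unthinned).

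Mfge8, the milk fat globule protein that links phosphatidylserine to integrins, was highest in myoid cells at 488 CPM (408 to 579.7). Among gates of at least 50 cells, Sertoli cells followed at 303 CPM (292 to 314), 0.62 times the myoid level (0.52 to 0.74). The 40 endothelial cells of the KO library stood at 314 CPM. It was also the only one of the 10 that stayed within 2-fold in germ cells. Early prophase cells held 128 CPM (115 to 141) and spermatogonia 87.5 CPM (78.6 to 97.1). Macrophages, at 69.5 CPM (54.7 to 87.1), overlapped spermatogonia in counting error, and Leydig cells held 54.6 CPM. Itgav, the αv integrin chain, had the smallest spread of the 10 over the 7 KO gates plotted. It stood at 83.8 CPM in stromal cells (70.8 to 98.5), 77.7 CPM in Sertoli cells (72.2 to 83.4) and 70.9 CPM in myoid cells (42.7 to 111), which counting error could not order.

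Elmo1, which with a Dock protein activates the small GTPase Rac1, was highest in KO Sertoli cells. It stood there at 132 CPM (124 to 139), against 31.0 CPM in the other gated cells, a ratio of 4.25 (3.82 to 4.74). Macrophages were at 94.5 CPM (77.0 to 115), 0.72 times the Sertoli level (0.58 to 0.88). Leydig and stromal cells, at 40.5 and 30.8 CPM, could not be ordered by counting error.

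The lipid genes were led by Leydig cells and macrophages. Cd36, which takes up fatty acids and oxidised lipoproteins, stood at 370 CPM in KO Leydig cells (353 to 387) and 14.1 CPM in the other gated cells, a ratio of 26.2 (23.1 to 29.8). Macrophages were at 83.4 CPM and stromal cells at 58.1 CPM. Leydig, stromal and myoid cells share a lineage in the gates, so cells passing for several of them were kept. Leydig markers in KO stromal cells were at 14.3% of their level in KO Leydig cells. The part of Leydig RNA in the stromal levels of Cd36, Gas6 and Abca1 was not tested. Sertoli cells held 5.28 CPM (51 UMIs in 2204 cells). That is below the 9.34 CPM obtained when the macrophage and Leydig levels were scaled by the share of those classes' markers in Sertoli cells, and the part of foreign RNA in the Sertoli level was not tested.

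Abca1, which exports cholesterol to apolipoprotein A-I, stood at 836 CPM in KO Leydig cells (810.0 to 862) and 626 CPM in macrophages (579.9 to 675). Leydig cells were 1.33 times macrophages (1.23 to 1.45). Stromal cells held 311 CPM and Sertoli cells 187 CPM (179 to 196). The same marker scaling gave 25.1 CPM of Abca1 for KO Sertoli cells from macrophages and Leydig cells, well under the level measured. Thinned to 2000 UMIs, 73.7% of Leydig cells, 64.6% of macrophages and 32.6% of Sertoli cells had an Abca1 UMI (91.2%, 62.2% and 42.3% unthinned), against 7.75% of early prophase cells (15.2% unthinned, median depth 4178 UMIs).

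Plin2, which coats lipid droplets in most tissues, was highest in KO macrophages at 104 CPM (85.4 to 125). The other gated KO cells were at 19.2 CPM, a ratio of 5.40 (4.35 to 6.65). Leydig cells held 45.9 CPM and stromal cells 36.5 CPM, with overlapping counting error. KO Sertoli cells held 12.4 CPM (10.3 to 14.9), below every other somatic gate with at least 50 cells. Leydig cells were 3.69 times Sertoli cells (2.94 to 4.65).

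Within the KO macrophages Gas6, Mertk, Abca1, Plin2 and Cd36 differed beyond counting error with the MHC class II state, by which testicular macrophages are commonly divided. No share over all genes is given for this split, so it does not set these genes apart from others. Cells with fewer than 10 MHC class II UMIs (H2-Aa, H2-Ab1, H2-Eb1 and Cd74) per 10000 UMIs were called low (261 cells) and the others high (160 cells), a division set after the data were seen, with 49 of 421 cells between 5 and 20. Gas6 stood at 751 CPM in low and 309.7 CPM in high cells, a ratio of 2.42 (1.97 to 3.01). Mertk stood at 217 and 86.8 CPM in low and high cells (2.49; 1.68 to 3.82). The lipid genes were likewise higher in the low cells. Abca1 stood at 738 CPM in low and 388 CPM in high cells (1.90; 1.57 to 2.32) and Plin2 at 127 CPM in low and 55.0 CPM in high cells (2.30; 1.40 to 4.0). Cd36 was at 99.5 CPM in low and 49.2 CPM in high cells (2.02; 1.18 to 3.66). Axl leaned the other way, at 120 CPM in low and 165 CPM in high cells, with an interval that included 1 (0.73; 0.51 to 1.03). Intervals of Tyro3, Elmo1, Mfge8 and Itgav also included 1. These are cells of 1 library, so the intervals describe its cells and not mice. Csf1r, a marker of the gate, was at 2215 CPM in low and 1375 CPM in high cells, so the low cells were also richer in a general macrophage transcript. Its part in these ratios was not tested.

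**Figure D2:**
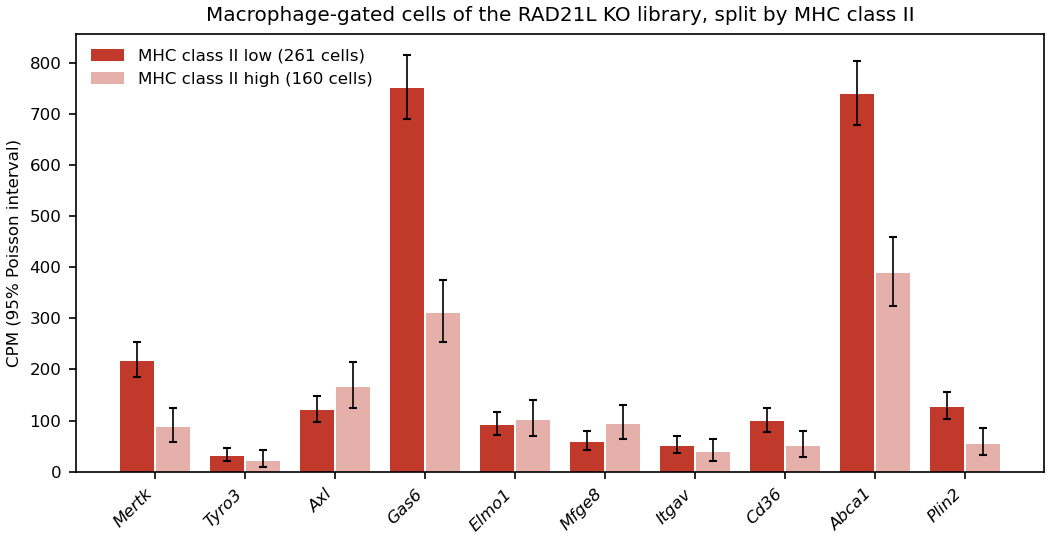
CPM (vertical axis) of the 10 genes (horizontal axis) in macrophage-gated cells of the RAD21L KO library with few and with many MHC class II UMIs, with 95% Poisson intervals. Gas6, Mertk, Abca1 and Plin2 are higher in the low cells (Gas6 751 against 309.7 CPM), while the Axl intervals overlap.

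KO Sertoli cells also differed among themselves. In 166 of them the pro-death gene Hrk or the secreted protein gene Wfdc18 had a UMI, a pair of genes chosen with earlier results of these data known. In those cells Gas6 stood at 37.8 CPM, against 94.9 CPM in the other KO Sertoli cells (0.40; 0.29 to 0.54). Elmo1 stood at 58.8 CPM with and 141 CPM without such a UMI (0.42; 0.32 to 0.53). Itgav was instead higher in them, at 124 CPM with and 71.5 CPM without (1.73; 1.43 to 2.08). Smaller differences were a lower Tyro3, at a ratio of 0.73 (0.62 to 0.85), and a lower Mfge8, at 0.79 (0.70 to 0.90). Abca1 was higher, at 1.23 (1.08 to 1.41). The intervals of Mertk, Axl, Cd36 and Plin2 included 1. Cells with such a UMI were deeper, with medians of 6220.5 and 2378 UMIs, and the part of depth was not tested.

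Genes of the same pathways, taken from lists that exclude the 10, were counted in the same comparisons, to be read beside the background shares and medians given above. Of 19 phosphatidylserine receptors and bridging proteins, 3 are macrophage markers and were left out there, and 15 had enough UMIs, of which 7 were at least 2-fold higher in KO macrophages and 2 lower. The receptors Timd4 (64.8 CPM in macrophages, 0.0841 CPM elsewhere; 2 UMIs there), Stab1 (899 and 2.40 CPM) and Msr1 (138 and 0.546 CPM) led them. In Sertoli cells 3 of 18 were higher and 13 lower. The 3 were Thbs1, a phosphatidylserine bridging protein (62.1 and 5.59 CPM), Itgb5, the β5 chain that pairs with Itgav (179 CPM in Sertoli cells, 28.9 CPM elsewhere; 6.19, 5.58 to 6.89), and Scarb1, the HDL receptor (257 and 111 CPM). In Leydig cells 1 of 18 was higher and 12 lower. In germ cells 4 of 18 were higher, led by Adgrb1 (12.9 and 0.338 CPM), and 14 lower. The median log2 ratio of the list was -2.64 in Sertoli cells, 0.49 in macrophages, -2.04 in Leydig cells and -3.26 in germ cells.

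Of 14 engulfment signalling genes, 5 were higher in macrophages and 1 lower. Dock2 (119 and 0.715 CPM) and Vav1 (66.7 and 0.462 CPM), both activators of Rac family GTPases in blood cells, had the largest ratios. Sertoli cells had 1 of 14 higher and 7 lower. That one was Trio, a Rac1 and RhoA exchange factor (124 and 43.8 CPM). Leydig cells had 2 higher and 4 lower, and germ cells 2 higher and 6 lower. Their medians were -0.82 in Sertoli cells, 0.34 in macrophages, -0.51 in Leydig cells and -0.68 in germ cells. Of 16 phagosome maturation genes, 7 were higher in macrophages and 1 lower, led by the oxidase subunit Cybb (541 and 1.13 CPM). Sertoli cells had 1 higher and 3 lower. The one was Ctsl, a lysosomal protease, at 2649.9 CPM in Sertoli cells and 420.0 CPM elsewhere (6.31; 6.14 to 6.49). Leydig cells had 2 higher and 5 lower, and germ cells 1 higher and 4 lower. The medians of this list were -0.42, 0.91, -0.31 and -0.30 in Sertoli cells, macrophages, Leydig cells and germ cells.

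Among 14 cholesterol efflux and LXR genes, macrophages had 7 higher and 3 lower, with a median log2 ratio of 1.06 beside -0.36 for all genes tested. Apoe, the lipoprotein that accepts exported cholesterol, stood at 19578 CPM in macrophages and 984 CPM elsewhere. Abcg1, a partner exporter of Abca1, stood at 105 and 12.0 CPM. Leydig cells had 6 higher and 3 lower, including Lcat, which esterifies cholesterol on lipoproteins (28.0 and 2.54 CPM), and Rxra, the partner of LXR (86.0 and 20.6 CPM). Sertoli cells had 2 higher and 9 lower. The higher ones were Lipa, the lysosomal lipase that frees cholesterol (86.3 and 26.3 CPM), and Soat1, which stores it as ester (455 and 192 CPM). Germ cells had 0 higher and 9 lower. The medians in the other classes were -1.91 in Sertoli cells, 0.79 in Leydig cells and -1.45 in germ cells.

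Of 22 lipid droplet and fatty acid genes, 21 had enough UMIs. Leydig cells had 7 higher and 6 lower, among them the nuclear receptor Ppara (136 and 7.03 CPM) and the droplet coat genes Plin1 (17.7 and 1.30 CPM) and Plin5 (17.0 and 3.39 CPM). Sertoli cells, low in Plin2, had 2 higher and 12 lower. The 2 were Cidea, a droplet fusion protein, at 199.6 CPM in Sertoli cells and 11.5 CPM elsewhere (17.3; 14.9 to 20.4), and the fatty acid carrier Fabp5 (402 and 77.2 CPM). Macrophages had 1 higher, the lipoprotein lipase Lpl (229.7 and 1.51 CPM), and 7 lower. Germ cells had 4 higher, led by the triglyceride synthase Dgat2 (73.9 and 6.48 CPM), and 12 lower. The medians were -1.30 in Sertoli cells, -0.51 in macrophages, -0.11 in Leydig cells and -1.64 in germ cells.

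Of 12 surface signals of dying and living cells, Sertoli cells had 3 higher and 6 lower, led by the nucleotide receptor P2ry2 (23.9 and 2.17 CPM). The scramblase Xkr8, which exposes phosphatidylserine in dying cells, stood at 13.5 CPM in Sertoli cells and 6.51 CPM elsewhere. Macrophages had 2 higher and 3 lower; P2ry6, which senses UDP (125 and 0.589 CPM), and Sirpa, the receptor of the "do not eat" signal Cd47 (310.3 and 1.85 CPM), were the 2. Leydig cells had 3 higher and 5 lower, and Cd47 itself was among them at 607 CPM in Leydig cells and 75.9 CPM elsewhere (8.0; 7.52 to 8.52). Germ cells had 2 higher and 6 lower. The medians were -1.52 in Sertoli cells, -0.34 in macrophages, -0.62 in Leydig cells and -1.43 in germ cells. All 4 MHC class II genes were higher in macrophages and lower in Sertoli, Leydig and germ cells.

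The next comparison asked whether the genes differed between KO and WT Sertoli cells. Of the 10, Abca1 was at least 2-fold higher in KO cells, beside 11.8% of all 13717 genes tested, and Gas6 was at least 2-fold lower, beside 16.4%. Gas6 stood at 88.1 CPM in KO Sertoli cells (851 UMIs) and 252 CPM in WT Sertoli cells (131 UMIs), a ratio of 0.35 (0.29 to 0.42). Abca1 stood at 187 CPM in KO and 65.5 CPM in WT cells (34 UMIs), a ratio of 2.86 (2.04 to 4.14). Just within 2-fold lay Tyro3, at 206 CPM in KO and 104 CPM in WT cells (1.98; 1.51 to 2.65), and Mertk, at 109 CPM in KO and 55.9 CPM in WT cells (1.96; 1.35 to 2.94). Cd36 had 0 UMIs in WT Sertoli cells, which allows up to 5.78 CPM (3 counts of the total), a limit above the KO level of 5.28 CPM.

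The 2 sets of Sertoli cells differed in depth and in foreign RNA. Their median depths were 2984 UMIs in KO and 1511 UMIs in WT, and markers of elongating spermatids made up 0.000611% of UMIs in KO and 2.05% in WT Sertoli cells. These markers were densest in WT Sertoli cells under 4000 UMIs (156 cells, 3.64% of UMIs) and sparser in the other 32 (0.806%). In the shallow WT cells 8 of the 10 genes stood below their level in deep WT cells. Cd36 was at 0 UMIs in both, and Plin2 stood at 30.9 CPM in shallow (7 UMIs) and 17.1 CPM in deep WT cells (5 UMIs). Sertoli markers were also sparser in the shallow WT cells, at 0.842% of UMIs against 1.18% in the deep ones. No share over all genes is given for this split.

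Cells of at least 4000 UMIs were therefore compared alone, a limit chosen after the data were seen. There were 1062 such KO cells and 32 WT cells. Gas6 was lower by more, at 88.4 CPM in KO (729 UMIs) and 373 CPM in WT cells (109 UMIs), a ratio of 0.24 (0.19 to 0.29), beside 11.9% of genes at least 2-fold lower. Abca1 came to 195 CPM in KO and 106 CPM in WT cells (31 UMIs), a ratio of 1.84 (1.29 to 2.72) that no longer reached 2-fold. In cells under 4000 UMIs Abca1 stood at 140.1 CPM in KO and 13.2 CPM in WT cells (3 UMIs), a ratio of 10.6 (3.57 to 51.7). Abca1 was not alone in this. In the same shallow cells Mertk, Tyro3, Axl, Elmo1 and Itgav had ratios of 3.54 to 4.61, on 3 to 8 WT UMIs each. Mfge8 had a ratio of 1.62 and Plin2 of 0.55. No share over all genes is given for the shallow cells. In the deep cells 0 of the 10 genes were at least 2-fold higher, beside 5.78% of all genes. Tyro3, at 220.1 CPM in KO and 157 CPM in WT cells, had a ratio of 1.40 (1.05 to 1.92). Intervals of the ratios of Mertk, Axl, Elmo1, Mfge8, Itgav and Plin2 included 1, and Cd36 had 0 UMIs in WT. The intervals do not show that these genes were alike: that of Mertk ran from 0.90 to 2.04.

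The Gas6 difference lay in the deep cells: 109 of the 131 WT Gas6 UMIs were in those 32 cells. With deep cells thinned to 4000 UMIs, 27.0% of KO (24.4% to 29.8%) and 56.3% of WT Sertoli cells (37.7% to 73.6%) had a Gas6 UMI. Before thinning the shares were 40.2% of 1062 KO cells and 75.0% of 32 WT cells, at median depths of 7085 and 8951.5 UMIs. No deep WT cell held more than 10 of the 109 Gas6 UMIs. Markers of the classes richest in Gas6 were few in WT Sertoli cells, whose UMI sum was far smaller than that of KO Sertoli cells: 10 of 13 macrophage markers, Csf1r and C1qa among them, and 4 of 10 Leydig markers, Cyp17a1 among them, had 0 UMIs there. Mrc1 held 126 of the 140 macrophage marker UMIs. Macrophage markers made up 0.0216% of KO and 0.0270% of WT Sertoli UMIs, and 0.0209% of KO and 0.0400% of WT UMIs in deep cells. Leydig markers made up 0.0667% of KO and 0.00347% of WT Sertoli UMIs. Their part in the Gas6 difference was not tested. In Sertoli cells under 4000 UMIs, Gas6 stood at 86.7 CPM in KO and 97.1 CPM in WT cells (22 UMIs), so that among shallow cells counting error did not separate the libraries (0.89; 0.56 to 1.48). Most of the other genes were higher in KO in those shallow cells, so this ratio does not show that Gas6 was alike in the 2 libraries.

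**Figure D3:**
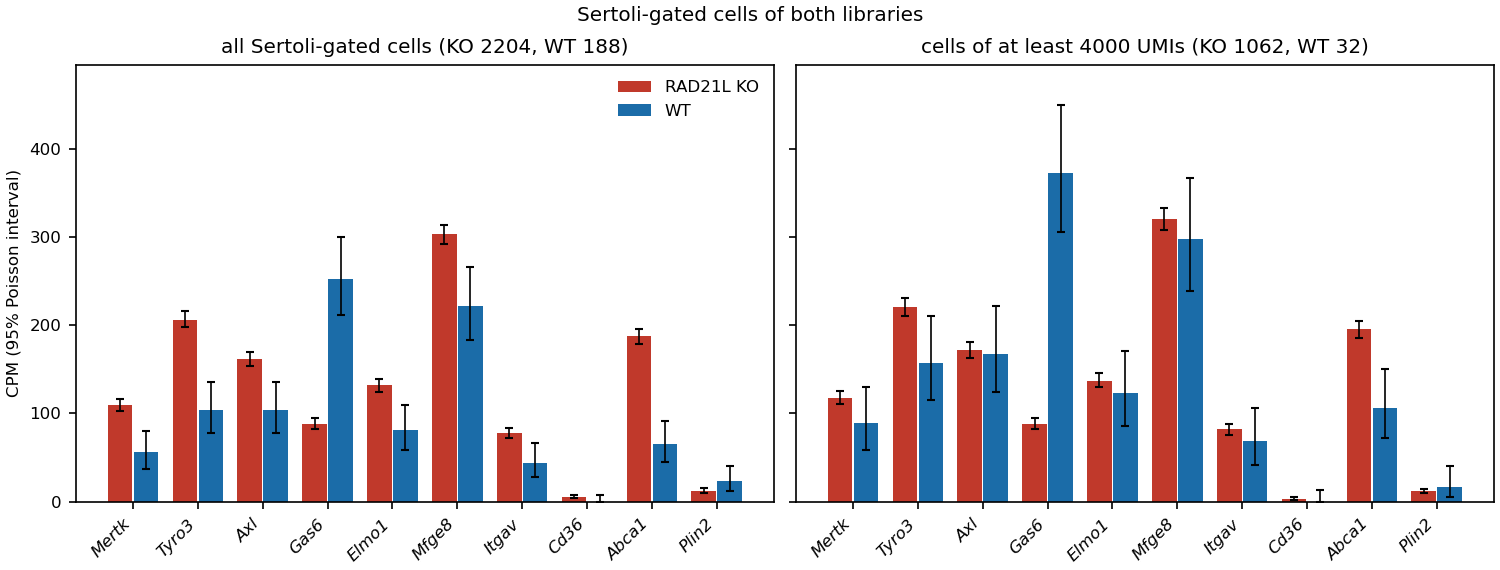
CPM (vertical axis) of the 10 genes (horizontal axis) in Sertoli-gated cells of the RAD21L KO and WT libraries, with 95% Poisson intervals, for all such cells (left) and for cells of at least 4000 UMIs (right). Gas6 is lower in KO in both panels (88.1 against 252 CPM, and 88.4 against 373 CPM), and the excess of Abca1 in KO is smaller in the right panel.

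Pathway genes that differed between KO and WT Sertoli cells are named here after their values were seen. Fabp5 stood at 402 CPM in KO and 133 CPM in WT cells (3.02; 2.38 to 3.89), and in deep cells at 398 and 171 CPM (2.33; 1.76 to 3.15). Of the cholesterol efflux list 3 of 11 were higher and 2 lower in KO. Abcg1 had 202 UMIs in KO and 0 in WT Sertoli cells, at least 3.62-fold higher against a floor of 3 UMIs, with a lower 95% limit of the ratio at 2.92. Apoe stood at 112 CPM in KO and 19.3 CPM in WT cells (5.84; 3.16 to 12.2). In deep cells it stood at 74.2 CPM in KO and 6.84 CPM in WT cells (2 UMIs), a ratio of 10.8 (2.99 to 89.8). Macrophage markers in KO Sertoli cells were at 0.913% of their level in KO macrophages, where Apoe was at 19578 CPM. Mrc1 held 1146 and Fcer1g 561 of those 2086 marker UMIs, against 64 for C1qa. The part of macrophage RNA in the Apoe level was not tested. Lipa stood at 86.3 CPM in KO and 30.8 CPM in WT cells (2.80; 1.71 to 4.92), and in deep cells at 92.1 CPM in KO and 51.3 CPM in WT cells, under 2-fold (1.80; 1.08 to 3.23). The 2 lower genes encode nuclear receptors. Nr1h3, which encodes LXR alpha, stood at 2.49 CPM in KO and 7.71 CPM in WT cells (4 UMIs; 0.32, 0.11 to 1.28), and Rxra at 3.52 CPM in KO and 9.63 CPM in WT cells (5 UMIs; 0.37, 0.14 to 1.20). Both intervals included 1.

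Of the lipid droplet list 1 of 16 was higher and 5 lower in KO Sertoli cells. The lower ones included Acsl1, which activates fatty acids (16.1 CPM in KO, 137 CPM in WT), Dgat2 (3.62 and 69.4 CPM in KO and WT) and the lipase Lipe (3.83 and 44.3 CPM in KO and WT). All 3 were abundant in WT elongating spermatids, at 721 CPM for Acsl1, 101 CPM for Dgat2 and 247 CPM for Lipe, and the part of spermatid RNA was not tested. In deep cells 1 of 14 of the list was higher and 3 lower, and of the cholesterol list 2 of 10 were higher and 2 lower. The other lists gave 2 higher and 0 lower of 11 phosphatidylserine genes, 1 and 0 of 9 engulfment genes, 3 and 0 of 15 phagosome genes, 4 and 1 of 9 surface signals, and 0 and 1 of 4 MHC class II genes. In deep cells the same lists gave 1 higher of 10, 0 of 9, 1 of 15 and 1 of 8 with 0 lower in each, and for MHC class II 0 higher and 1 lower of 3. Over all Sertoli cells the list medians lay between -0.01 for the lipid droplet list and 0.68 for the cholesterol list, beside 0.10 for all genes tested.

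In germ cells of the stages that both libraries held, most of the genes were low. In spermatogonia 5 of 9 genes with at least 20 UMIs (Mertk, Tyro3, Axl, Gas6 and Mfge8) were at least 2-fold higher in KO, beside 6.92% of 12615 genes, and 0 were lower, beside 9.85%. In early prophase 6 of 8 (Mertk, Tyro3, Axl, Gas6, Elmo1 and Abca1) were higher in KO, beside 13.5% of 11517 genes, and 0 were lower, beside 12.4%. Most WT counts were small. Gas6 stood at 22.9 CPM in KO (93 UMIs) and 7.57 CPM in WT spermatogonia (6 UMIs), a ratio of 3.03 (1.34 to 8.47). In early prophase it stood at 34.9 CPM in KO (107 UMIs) and 11.4 CPM in WT cells (8 UMIs), a ratio of 3.06 (1.5 to 7.26).

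Foreign RNA differed between the libraries' germ cells as well. Sertoli markers in KO spermatogonia reached 6.64% of their level in KO Sertoli cells, against 1.20% in WT spermatogonia; for early prophase the values were 8.61% in KO and 1.35% in WT. Scaling the Sertoli, macrophage and Leydig levels of each gene by such marker shares gave 8.14 CPM of Mertk for KO spermatogonia, where 8.13 CPM was measured. For Axl the scaling gave 11.3 CPM and the measurement 12.8 CPM. With 20% of each library's mean profile taken off every gate, 0 of the 10 genes were higher in KO in either germ class. For Mertk and Axl the scaled value lay within the counting interval of the KO level in both germ classes, and the part of foreign RNA in these differences was not tested.

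The pathway lists were counted in the same germ cells, with the same foreign RNA present. In spermatogonia KO was higher and lower for 3 and 1 of 9 phosphatidylserine genes, 1 and 0 of 9 engulfment genes, 1 and 0 of 14 phagosome genes, 3 and 0 of 11 cholesterol genes, 3 and 2 of 14 lipid droplet genes, 1 and 1 of 8 surface signals and 1 and 0 of 2 MHC class II genes. In early prophase the counts were 5 and 0 of 8, 4 and 0 of 9, 3 and 0 of 14, 4 and 0 of 9, 4 and 3 of 15, 0 and 1 of 7, and 2 and 0 of 2, in the same order of lists. Ctsl, at 2649.9 CPM in KO Sertoli cells, stood at 320.2 CPM in KO and 122 CPM in WT spermatogonia.

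Some genes stood above that scaling. Tyro3 stood at 31.3 CPM in KO spermatogonia (26.1 to 37.2), where the scaling gave 13.9 CPM, and at 42.4 CPM in KO early prophase cells (35.4 to 50.3), where it gave 18.0 CPM. Itgav stood at 16.0 CPM in KO spermatogonia and 20.9 CPM in KO early prophase cells, where the scaling gave 5.66 and 7.34 CPM. Mfge8 and Gas6 in both classes and Abca1 in spermatogonia, where the scaling gave 23.6 CPM, did so as well. For Mfge8 it gave 20.9 CPM in KO spermatogonia and 27.1 CPM in KO early prophase cells, where 87.5 and 128 CPM were measured. In WT cells Mfge8 stood at 40.4 CPM in spermatogonia (32 UMIs) and 69.9 CPM in early prophase (49 UMIs), where the scaling gave 2.65 and 3.00 CPM. The WT scaling used Sertoli cells alone, since WT macrophages and Leydig cells were too few, so it is not the same measure as in KO. The KO to WT ratios were 2.17 in spermatogonia (1.51 to 3.22) and 1.82 in early prophase (1.35 to 2.51). Abca1 was lower in early prophase than in spermatogonia in both libraries. It stood at 100.1 CPM in KO spermatogonia and 37.2 CPM in KO early prophase cells, a ratio of 2.69 (2.18 to 3.34). In WT it stood at 71.9 CPM in spermatogonia (57 UMIs) and 8.56 CPM in early prophase cells (6 UMIs), a ratio of 8.40 (3.63 to 23.8). In spermatogonia its KO to WT ratio was 1.39 (1.05 to 1.87). In KO early prophase cells the scaling gave 30.8 CPM, within the counting interval of the 37.2 CPM measured (30.7 to 44.7).

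Later germ cells were present in the WT library alone. Plin2 stood at 1.68 CPM in WT pachytene spermatocytes (23 UMIs), at 61.2 CPM in round spermatids (54.7 to 68.3, 320 UMIs) and at 4.44 CPM in elongating spermatids. Round spermatids were 36.5 times pachytene cells (23.9 to 58.4) and 13.8 times elongating spermatids (9.86 to 19.7). Thinned to 2000 UMIs, 10.4% of round spermatids, 0.992% of pachytene cells and 1.11% of elongating spermatids had a Plin2 UMI (16.3%, 3.32% and 2.88% unthinned). Their median depths were 2032, 19243.5 and 5419 UMIs. After KO macrophages, WT round spermatids had the highest Plin2 level among gates of at least 50 cells. Elmo1 stood higher in both spermatid gates than in pachytene cells. It stood at 1.39 CPM in pachytene cells, 11.1 CPM in round spermatids and 16.1 CPM in elongating spermatids (141 UMIs), a ratio of elongating to pachytene cells of 11.6 (7.15 to 19.8).

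The spermatids were also divided by how far their elongating marker share stood above the mean of both libraries. From the lowest to the highest of 5 bands, Plin2 stood at 79.6, 71.7, 34.1, 15.6 and 3.87 CPM. Elmo1 stood at 0.808, 9.31, 29.0, 23.4 and 15.8 CPM in the same order. Plin2 was thus highest in the bands with the smallest elongating marker share and Elmo1 in the middle bands. The bands are relative to a mean share, so the lowest band need not be free of these markers. The lowest band held the deepest cells (165 cells, median 14161 UMIs). Summed over whole gates, the remaining genes stayed at or below 5.35 CPM in pachytene cells, round spermatids and elongating spermatids. In single bands they reached up to 14.3 CPM, for Mfge8 in the fourth band (11 UMIs), and Gas6 stood at 13.6 CPM in the third (16 UMIs). Mertk and Tyro3 had 0 UMIs in the fourth band, and Cd36 had 2 UMIs in round spermatids and 0 in the other stages.

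**Figure D4:**
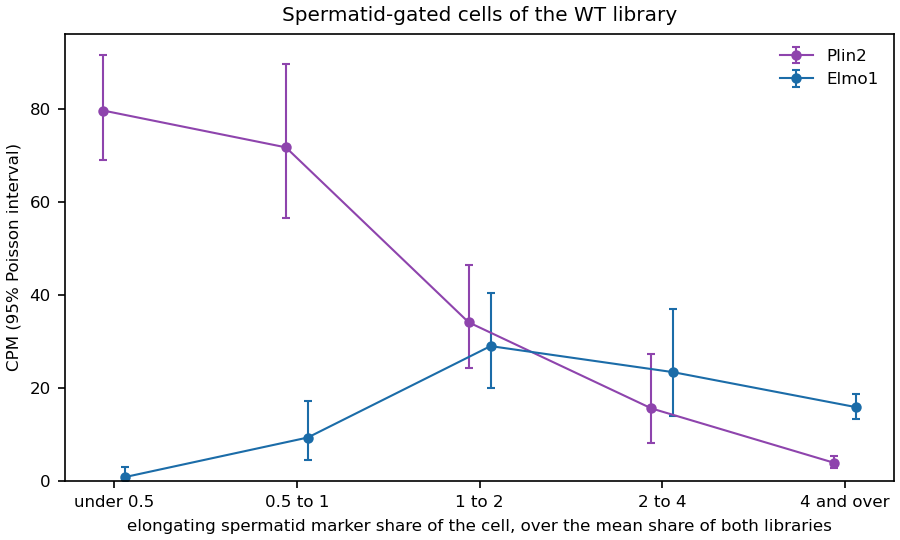
CPM (vertical axis) of Plin2 and Elmo1 in spermatid-gated cells of the WT library, grouped by the cell's elongating marker share over the mean share of both libraries (horizontal axis), with 95% Poisson intervals. Plin2 declines from 79.6 to 3.87 CPM across the bands while Elmo1 peaks at 29.0 CPM in the third.

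The few WT cells of the interstitium are given as values only. In 7 WT Leydig cells Abca1 stood at 656 CPM (469 to 893, 40 UMIs), Cd36 at 443 CPM (292 to 644, 27 UMIs) and Gas6 at 213 CPM (114 to 365, 13 UMIs). All 3 genes thus had UMIs in WT as in KO Leydig cells. In 7 WT macrophages Axl had 3 UMIs and Cd36 2 UMIs, and the other 8 genes had 0.

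The genes whose levels most resembled each of the 10 were sought among 14700 genes over 13 sums of a class and library with at least 50 cells, by Pearson correlation of log2(CPM + 1). The sums share libraries and classes, so these values describe the pattern only. Mertk was most like Pea15a, Rgs2 and Stard8 (r of 0.98 to 0.99), and Axl most like Npl, Calhm2 and Mmp14 (0.99 each). Tyro3 was most like Cgn (0.99), then Pdia5 and Fyn. Gas6 was most like Sat1, Plgrkt and Tpp1 (0.97 each). Mfge8 was most like Frmd6 (0.98), Itgav most like Gm32584 (0.98) and Elmo1 most like Sh3bp5 (0.99). Cd36 was most like Tmem176b, Tmem176a and Pon3 (0.98 each), and Abca1 most like Rbm3, Gpx1 and Tmem256 (0.98 each). For Plin2, with its spermatid level, the closest gene Peg13 reached 0.91.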

How the data were processed

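The deposited tables give unnormalised UMI counts, as the authors made them, for 2 libraries. Per the submitters' processing notes, the authors used Cell Ranger 6.1.2, Seurat 4.3 and the GRCm39 build. The cell calling step is not given in the sources used here. From these counts, cells with at least 500 genes and at most 20% of UMIs on genes starting mt- were kept (2 such genes, the mitochondrial ribosomal RNAs). That removed 709 and 30 KO barcodes and 8 and 7 WT barcodes. Gates used 117 markers of 12 classes (all found). No doublet caller was run; 238 KO and 39 WT cells passing for 2 lineages were left out, and 695 KO and 1732 WT cells passed no gate. UMIs were summed per gate and library. A gene was called at a 2-fold difference of CPM with at least 20 UMIs in both sums together. A count under 3 was set to 3 on the lower side only, so that the floor could not create or turn round a difference. The 7 pathway lists hold 101 genes, all found; the gate comparisons name up to 4 per list with the largest ratios, and genes named between KO and WT were chosen after their values were seen. The members and lists were chosen with earlier results of these data known. No test was run, since cells are not replicates. Shares were computed on cells thinned to 2000 UMIs, leaving out shallower cells. Analyses used Python 3.11.15, NumPy 2.4.6, SciPy 1.17.1 and pandas 2.3.3, and were checked on simulated counts. Promoters came from RefSeq (GRCm38.p6); all 10 genes matched. No coordinates were converted between builds.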

Additional observations from a re-analysis of the deposited data

Results flagged for a closer look

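Gas6 was the only one of the 10 genes whose KO to WT ratio lay below 1 in one class and above 1 in another, with intervals that excluded 1. The ratio was 0.349 in Sertoli cells (88.1 CPM in KO, 252 CPM in WT), 3.03 in spermatogonia (22.9 CPM in KO, 7.57 CPM in WT) and 3.06 in early prophase (34.9 CPM in KO, 11.4 CPM in WT). The difference between these ratios was not tested. The scaling by foreign marker shares gave 15.3 CPM of Gas6 in KO spermatogonia and 20.1 CPM in KO early prophase cells. Both values lay below the counting intervals of the measured levels (18.5 to 28.1 CPM and 28.6 to 42.2 CPM). With 20% of each library's mean profile taken off, Gas6 was among the genes that were no longer at least 2-fold higher in KO germ cells. The part of foreign RNA in the germ cell ratios was not tested.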

How the results depend on the processing

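The 4 counts of genes higher in a KO gate kept within 1.5-fold of their values under every alternative tried except a 3-fold limit, which left 1 of 10 in macrophages. The counts of KO against WT moved more. With 20% of each library's mean profile taken off, 0 of 10 were higher and 2 lower in KO Sertoli cells, and 0 were higher in either germ class. Against WT Sertoli cells, a gate ratio of 1.5 gave 3 higher, leaving out the deepest 5% of cells gave 2, a 3-fold limit gave 0 higher and 0 lower, and setting the median gene to no difference gave 2 lower. The limit of 4000 UMIs, added after seeing the data, gave 0 higher. For spermatogonia, a minimum of 4 markers, leaving out the leading marker and setting the median gene to no difference gave 3 higher each, and the 3-fold limit gave 2. For early prophase, a minimum of 1 UMI gave 1 lower. The cause of these moves was not tested. Over these settings the log2 ratio of Gas6 in Sertoli cells lay between -2.50 and -1.40, and that of Abca1 between 0.88 and 1.69. In cells under 4000 UMIs alone, which are not among these settings, the ratios themselves were 0.89 for Gas6 and 10.6 for Abca1. Among the levels, 70 moved past their counting interval and 530 did not; shares thinned to 1000 UMIs were lower by construction. No direction of a called gene was reversed. No paired analysis was possible because each genotype has 1 library, and for the same reason no library could be left out. Depth limits the WT values, with 34 UMIs of Abca1 in Sertoli cells and 6 to 8 UMIs of Gas6 in the germ gates.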
